A study of Mus musculus with 48 samples.

Results

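The mouse microRNA families miR-297, miR-466, miR-467 and miR-669 were followed across germ cells and somatic cells of the early ovary. The members were all rows of the deposited miRNA table whose name begins with 1 of these 4 family numbers followed by a letter or a hyphen, from either arm of the hairpin. This gave 35 of the 563 mature miRNAs in the table, with 4 of miR-297, 13 of miR-466, 6 of miR-467 and 12 of miR-669. Of the 35, 24 came from the 5p arm, 8 from the 3p arm and 3 carried no arm in their name (miR-466f, miR-466g and miR-466k).

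Small RNAs under 100 bases were sequenced from gonads of female CD1 embryos of wild-type genotype at embryonic day 13.5, whose ancestor in the parental generation had drunk dosed water during days 1 to 13 of pregnancy. MEHP, a metabolite of a phthalate plasticiser, was given at 35 mg/kg body weight per day, VZN (vinclozolin, an anti-androgenic fungicide) at 50 mg/kg body weight per day, and the control lineage had the vehicle alone, DMSO at 0.3%, which both dosed lineages also received. F1 embryos were exposed in the uterus, F2 and F3 were later generations reached through the females of the lineage, and F2Sy was a second generation with both parents of that lineage. Primordial germ cells (PGC) held on anti-CD15 magnetic beads, and the remaining somatic cells (SC), came from pools of about 80 gonads, giving 48 libraries in 24 groups of 2. By staining, the labels put the PGC fractions at 93 to 96% purity and the SC fractions at over 90%, so each fraction still held cells of the other. Nothing in the labels states that the libraries paired in a group are from different pools of gonads, and the p-values therefore reflect only how far such libraries differ, which may be technical.

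MicroRNAs are cut from hairpin transcripts, and either arm of the hairpin can be kept as the mature strand, which represses messenger RNAs mainly through the short seed near its 5′ end. The miR-297, miR-466, miR-467 and miR-669 hairpins form a large tandem rodent cluster inside Sfmbt2, a gene for a Polycomb group protein that is imprinted and paternally expressed in the mouse placenta, and the cluster is best known for its role in placental growth. Its copies arose by repeated duplication, so that many mature sequences are nearly identical and short reads can be assigned to more than 1 of them.

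A RefSeq gene of the same name was found for 34 of the 35 rows, all but miR-466a-5p. These rows correspond to 47 hairpin genes, of which 44 lie within Sfmbt2 on chromosome 2 (GRCm38), all of them in 1 intron and clear of every exon of that gene. The number of copies differs between names. miR-467a has 10 hairpin genes, all within Sfmbt2, miR-297a has 4, of which 3 are within Sfmbt2, and miR-466c has 3, whereas most other names have 1. The exception in position is miR-466k, whose only gene lies on chromosome 3.

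The mature sequence of miR-466k was present in the RefSeq table (GRCm38.p6) and is shown because it carries the UG repeats typical of these families. Its row was higher in PGC in every fraction comparison, as were those of the cluster's tested members. Near-identical members may share reads, so the row of miR-466k need not reflect its gene outside the cluster. Sequences are also given for a further pair of family relatives that are not among the counted rows. These are miR-467h on chromosome 9 and miR-669n on chromosome 3, both outside Sfmbt2. They allow single sequences to be compared, and show no seed for a whole family. Capitals mark the seed, bases 2 to 8, and the sequences run 5′ to 3′.
miR-466k: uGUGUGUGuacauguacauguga
miR-467h: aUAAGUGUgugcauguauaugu
miR-669n: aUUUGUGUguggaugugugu
The 3 seeds differ from one another, and each contains the run GUGU. The other 34 members are given by name.

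Library totals of listed counts were 2932091 to 7946140 in PGC and 7460018 to 11761591 in SC, and levels below are counts scaled to these totals (CPM, counts per 1000000 listed counts). The fractions followed their labels. Rows of germ cell markers (miR-290 to miR-295 and miR-302) summed to 165711 to 282113 CPM in PGC and to 3786 to 21266 CPM in SC, with 17 of 18 rows listed in all 24 PGC libraries. Rows of gonadal somatic markers (miR-202, miR-503, miR-351 and miR-322) summed to 5874 to 24722 CPM in PGC and to 80385 to 183266 CPM in SC. Mesenchymal marker rows likewise summed to 7334 to 27725 CPM in PGC and to 145297 to 169677 CPM in SC. A pair of libraries stood apart in the members themselves: library 1 of the VZN F2Sy germ cells, with miR-467a-5p at 253 CPM, and library 1 of the MEHP F3 somatic cells, with miR-467e-5p at 241 CPM. The main results that rest on them are also given without them.

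The table leaves cells blank and lists no count of 0, and no source used here gives the meaning of a blank. All 35 members were listed in at least 1 germ cell library. In PGC, 23 members were listed in all 24 libraries, and in SC 15 were. Of the 563 miRNAs in the table, 303 were listed in all PGC libraries and 355 in all SC libraries. Of member cells, 8.93% were blank in PGC and 23.9% in SC, although the SC libraries held more counts. A PGC library listed a median of 32.5 members, against 27 in an SC library. Altogether 18 members were listed in more PGC than SC libraries, 16 in equally many, and miR-466g alone in fewer, with 20 PGC and 21 SC libraries.

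A set of 4 members was listed in no SC library. These were miR-669k-5p, with 24.9 to 111 CPM in 21 PGC libraries, miR-466a-5p, with 24.2 to 52.6 CPM in 12, miR-297b-5p, with 23.8 to 44.9 CPM in 11, and miR-297c-3p, with 28.1 CPM in 1. For scale, the smallest value that a PGC library listed for any miRNA was 18.7 to 37.9 CPM, and in an SC library it was 12.6 to 15.7 CPM.

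Other members were listed widely in PGC and thinly in SC. miR-669h-5p had 59.4 to 210 CPM in 23 PGC libraries and 13.3 to 20.6 CPM in 4 SC libraries. miR-466f had 24.5 to 48.8 CPM in 19 PGC libraries and 14.6 and 15.6 CPM in 2 SC libraries. miR-467d-3p had 27.4 to 189 CPM in 22 PGC libraries and 14.7 to 37.4 CPM in 9 SC libraries. In the first pair the listed values of the fractions did not overlap, and in miR-467d-3p they did. miR-466e-3p was listed in 24 PGC and 11 SC libraries, miR-466h-5p in 21 and 15, miR-466h-3p in 17 and 14, and miR-466d-3p in 23 and 20.

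A further 7 members were listed in all 24 PGC libraries and in 22 or 23 SC libraries: miR-466n-5p, miR-466o-5p, both arms of miR-466p, miR-669d-5p, miR-669f-3p and miR-669o-3p. miR-466n-5p had 137 to 346 CPM in PGC and 14.2 to 34.7 CPM in SC. miR-466o-5p had 114 to 389 CPM in PGC and 16.5 to 27.9 CPM in SC. Neither range overlapped the other fraction's. miR-669c-5p was listed in 23 libraries of each fraction, with 80.0 to 280 CPM in PGC and 36.6 to 119 CPM in SC.

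The 15 members listed in all 48 libraries were miR-467a-5p, miR-467e-5p, miR-297a-5p, miR-669b-5p, miR-669f-5p, miR-467d-5p, miR-467c-5p, miR-669p-5p, miR-669l-5p, miR-466c-5p, miR-297c-5p, miR-669o-5p, miR-467b-5p, miR-466k and miR-669e-5p, in falling order of mean level. Of these, 14 are 5p strands and none is a 3p strand. The listed members together made up 2.54% ± 0.535 of listed counts in PGC and 0.513% ± 0.059 in SC (SD, n = 24 each), with ranges of 1.52 to 3.56% and 0.350 to 0.601%. The fractions therefore did not overlap in the sum. Among the 15, miR-467 was the largest family, with a summed level of 12337 ± 3058 CPM in germ cells and 2622 ± 356 CPM in somatic cells, and miR-466 the smallest, with 1254 ± 292.2 CPM in germ cells and 194 ± 30.3 CPM in somatic cells (SD over 24 libraries).

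**Figure D1:**
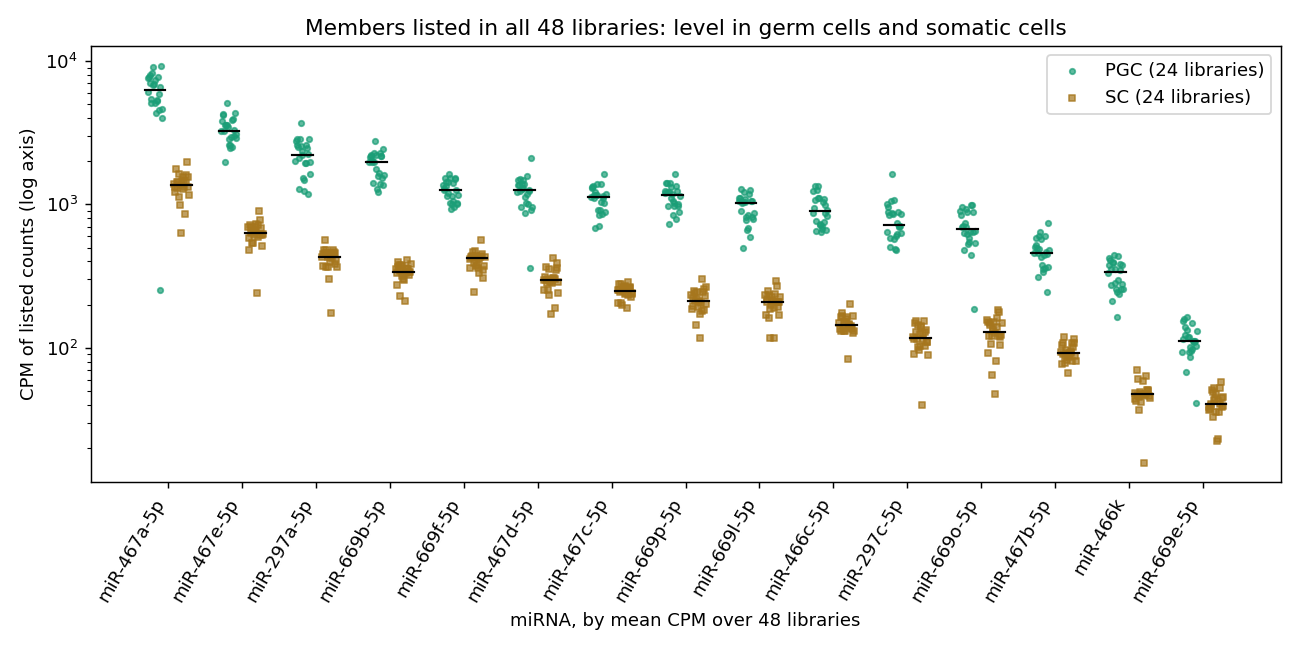
Level in CPM (log axis) of the 15 members listed in all 48 libraries, in falling order of mean level, with 1 point per library, circles for the 24 PGC and squares for the 24 SC libraries, and black bars at the medians. For miR-467a-5p the medians are 6288 CPM in PGC and 1371 CPM in SC, and the PGC library at 253 CPM is library 1 of the VZN F2Sy germ cells.

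The comparison of the fractions asked how the members divide between germ cells and the somatic cells around them. All 15 tested members were higher in PGC than in SC in the control lineage, by a median of 2.50 on the log2 scale, and in the MEHP and VZN lineages the count was again 15 of 15. With library 1 of the VZN F2Sy germ cells and library 1 of the MEHP F3 somatic cells both left out, 15 of 15 were again called in each lineage, with medians of 2.46 in MEHP, 2.35 in VZN and 2.56 in control. The other 20 members were left blank in some libraries and did not enter this test. In bulk fractions a higher share of cells that carry a miRNA and more of it per cell cannot be told apart.

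miR-467a-5p, the most abundant member, had a lowest, median and highest level of 5083, 7282 and 8196 CPM in the 8 control PGC libraries, against 1127, 1352 and 1751 CPM in the 8 control SC libraries, a log2 fold change of 2.44 ± 0.34 (SE). miR-467e-5p had 1986, 3579 and 4267 CPM in control PGC, against 478, 608 and 719 CPM in control SC (2.61 ± 0.19). miR-297a-5p had 1281, 2568 and 2875 CPM in control PGC, against 368.6, 455 and 562 CPM in control SC (2.50 ± 0.20). For all 3, every germ cell library lay above every somatic library of the control lineage.

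miR-669b-5p had 1412, 2018 and 2204 CPM in control PGC, against 228, 349 and 394 CPM in control SC (2.68 ± 0.15). miR-669f-5p had 1141, 1322 and 1535 CPM in control PGC, against 245, 422 and 469 CPM in control SC (1.85 ± 0.13). miR-467d-5p had 964, 1371 and 1497 CPM in control PGC, against 252, 297.03 and 368 CPM in control SC (2.26 ± 0.21). Again no library of one fraction reached the range of the other, and miR-669f-5p, with a somatic level near that of miR-297a-5p, showed the narrowest gap of the 6.

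Over the 15 members the log2 fold change in the control lineage ran from 1.74 ± 0.21 for miR-669e-5p to 2.92 ± 0.20 for miR-466k. miR-466c-5p was next at 2.88 ± 0.16. The adjusted p after Benjamini and Hochberg (edgeR's quasi-likelihood test) lay between 1.86e-16 for miR-669b-5p and 1.29e-07 for miR-467a-5p. miR-466k is the member encoded outside Sfmbt2, but its row may share reads with members encoded within it. Of all 251 miRNAs tested, 41.8% were called higher in PGC and the median log2 fold change was 0.09. The remaining members lay between: miR-297c-5p at 2.78, miR-669o-5p at 2.71, miR-669p-5p at 2.58, miR-467b-5p at 2.48, miR-669l-5p at 2.44 and miR-467c-5p at 2.38. The ranges of the 8 PGC and 8 SC libraries did not overlap for any of the 15, against 32.7% of all tested miRNAs with every PGC library above every SC library.

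**Figure D2:**
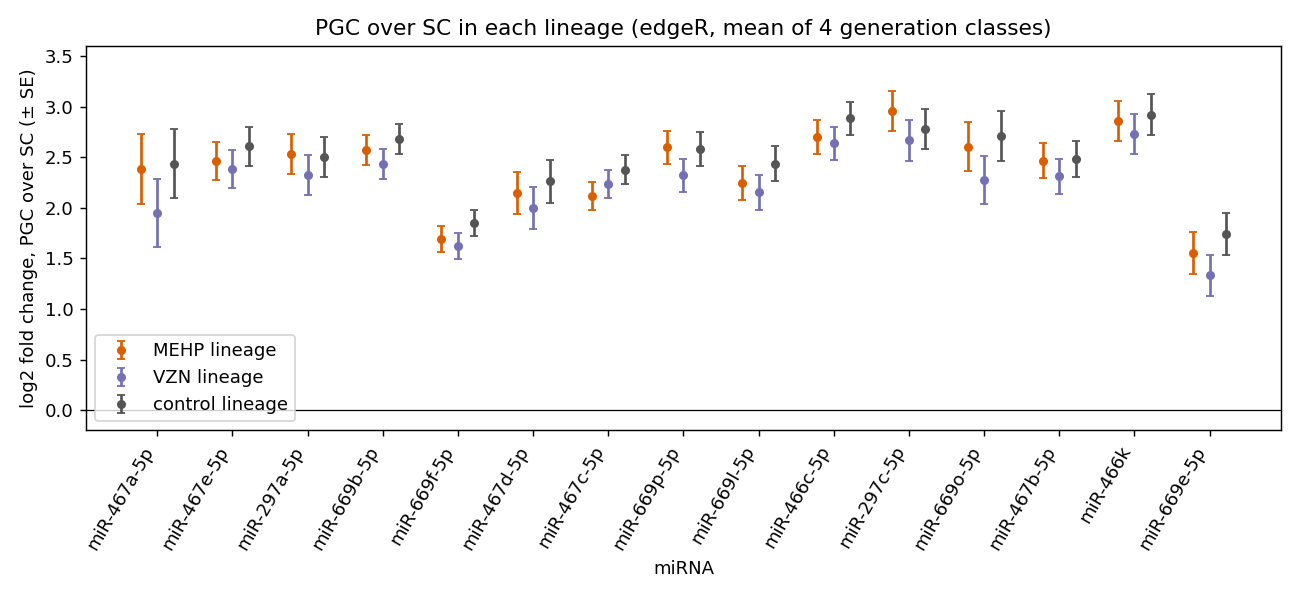
Log2 fold change of PGC over SC with its SE (edgeR) for the 15 members, in the MEHP, VZN and control lineages, each the mean over 4 generation classes of 2 libraries. All points lie above 0, the lowest being miR-669e-5p and miR-669f-5p and the highest miR-466k, miR-297c-5p and miR-466c-5p.

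The size of the difference set these families beside other clusters with known preferences. In control SC the 15 members had 14.2 to 32.1% of their mean level in control PGC, with a median of 18.9%. The 4 most abundant rows of the miR-290 to miR-295 cluster, the pluripotency cluster of mouse germ cells and embryonic stem cells, had 3.71 to 4.67% of their PGC level in SC. In edgeR's fit 12 of 12 tested rows of that cluster were called higher in PGC, with a median log2 fold change of 4.86, and 9 of 9 rows of the X-linked germline cluster, with a median of 4.83. The Dlk1-Dio3 cluster, which like Sfmbt2 lies in an imprinted region, had 27 of 27 tested rows called lower in PGC, with a median of -2.80 (42.2% of all miRNAs). Only rows listed in all 48 libraries were tested, so the medians cover different shares of each cluster. The miR-290 to miR-295, X-linked and Dlk1-Dio3 clusters had 16, 29 and 66 rows, and 29 Dlk1-Dio3 rows were listed in no PGC library.

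In the MEHP lineage the members' log2 fold changes of PGC over SC ran from 1.55 ± 0.21 for miR-669e-5p to 2.96 ± 0.20 for miR-297c-5p, with a median of 2.46 (all 251 miRNAs 0.06, 44.6% called higher). miR-467a-5p had 4310, 6106 and 9047 CPM in the MEHP PGC libraries, against 636, 1341 and 1629 CPM in the MEHP SC libraries. miR-297a-5p had 1233, 2069 and 3667 CPM in MEHP PGC, against 175, 413 and 459 CPM in MEHP SC. None of the 15 members had overlapping ranges, against 30.7% of all tested miRNAs with all PGC libraries higher.

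In the VZN lineage the log2 fold changes ran from 1.33 ± 0.20 for miR-669e-5p to 2.73 ± 0.20 for miR-466k, with a median of 2.31 (all 251 miRNAs 0.12, 38.6% called higher). miR-467a-5p had 253, 5264 and 9261 CPM in VZN PGC, against 854, 1441 and 1987 CPM in VZN SC. miR-467d-5p had 361, 1121 and 2091 CPM in VZN PGC, against 189, 304 and 389 CPM in VZN SC. Their ranges overlapped through library 1 of the F2Sy germ cells alone, and that of miR-669e-5p through library 2 of the same group, at 41.3 CPM. The other 12 members had all PGC libraries above all SC libraries, against 28.3% of all tested miRNAs. Over all 48 libraries together this held for 12 of 15 members, against 25.5% of all tested miRNAs. For miR-467a-5p the log2 fold change in this lineage was 1.95 ± 0.34, with 2.24 when library 1 of the F2Sy germ cells was left out and 1.04 when library 2 was.

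The difference between fractions was then compared between lineages. No member passed the test, and neither did any of the 251 miRNAs, in the MEHP lineage against the control lineage (0% called; before adjustment, no member and 2 miRNAs had p below 0.05), and the same held for the VZN lineage against it (0% called; before adjustment, no member and 3 miRNAs). In the MEHP lineage the change of the PGC to SC difference had a median of -0.10 over the members, 12 of 15 of them below 0 against 44.6% of all miRNAs, and of -0.20 with 14 of 15 below 0 when library 1 of the MEHP F3 somatic cells was left out. The smallest p were those of miR-467c-5p (-0.26 ± 0.19) and miR-669f-5p (-0.16 ± 0.18). In the VZN lineage it was below 0 for 15 of 15 members, with a median of -0.24, and 52.2% of all miRNAs were below 0; without library 1 of the VZN F2Sy germ cells the median was -0.19, again with 15 of 15 below 0, and no miRNA was called. The smallest p were those of miR-669e-5p (-0.41 ± 0.28, edgeR adjusted p = 0.961) and miR-669o-5p (-0.43 ± 0.32). Without library 2 of the VZN F2Sy germ cells, which leaves that group to library 1, miR-467a-5p was called in this comparison (-1.44 ± 0.24, edgeR adjusted p = 0.000457), as 1 of 4 miRNAs called among the 251. Across the 4 generation classes of the control lineage the PGC to SC difference did not change beyond the spread for any member (joint edgeR test, 0% of 251 miRNAs called).

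The exposure comparisons asked whether the levels in a fraction moved with the treatment of the ancestor, first as a mean over the 4 generation classes. No member passed the test in PGC or SC for either compound, and 0% of the 303 miRNAs tested in PGC and of the 355 tested in SC were called; no member had an unadjusted p under 0.05, and DESeq2 called none. MEHP and VZN were set against the same control libraries, so their values below are not independent of each other. Members are not independent either: in PGC the 5p or unmarked members had a median pairwise r of 0.65, against 0.01 for all listed miRNAs. Counts of members above or below 0, here and for the lineage differences, are therefore descriptive.

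In MEHP germ cells the listed members made up 2.50% ± 0.598 of counts, in VZN germ cells 2.42% ± 0.561 and in control germ cells 2.72% ± 0.462 (SD, n = 8 each). The 3 groups overlapped widely, with 1.76 to 3.56% in MEHP, 1.52 to 3.10% in VZN and 1.76 to 3.12% in control PGC. MEHP over control in PGC had a median log2 fold change of -0.13 over the 23 tested members, from -0.29 to 0.06, where the 303 miRNAs had a median of 0.01. Of the members 22 of 23 were below 0, against 46.9% of all miRNAs. The smallest p belonged to miR-466o-5p (-0.29 ± 0.21, edgeR adjusted p = 0.995) and miR-466c-5p (-0.23 ± 0.17). VZN over control in PGC also had a median of -0.13, with 22 of 23 members and 50.8% of all miRNAs below 0, and the smallest p for miR-466p-5p (-0.35 ± 0.26, edgeR adjusted p = 0.935) and miR-466o-5p (-0.27 ± 0.21). Without library 1 of the VZN F2Sy germ cells that median was -0.09, with 19 of 23 members and 52.1% of all miRNAs below 0, and no member but 2 of the 303 miRNAs were called. Without library 2 of that group, miR-467a-5p (-1.44 ± 0.16, edgeR adjusted p = 4.13e-05) and miR-467d-5p (-0.62 ± 0.13, edgeR adjusted p = 0.0164) were called, as 2 of 7 miRNAs called among the 303.

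Among the most abundant members in germ cells, the ranges of the lineages overlapped throughout. miR-467e-5p had a lowest, median and highest level of 2471, 2900 and 5087 CPM in MEHP PGC and 2495, 3194 and 4353 CPM in VZN PGC, against 1986, 3579 and 4267 CPM in control PGC. miR-669b-5p had 1212, 1715 and 2756 CPM in MEHP PGC and 1366, 1877 and 2444 CPM in VZN PGC, against 1412, 2018 and 2204 CPM in control PGC. miR-669f-5p had 930, 1097 and 1616 CPM in MEHP PGC and 958, 1213 and 1530 CPM in VZN PGC, against 1141, 1322 and 1535 CPM in control PGC. In each of these the medians of both exposed lineages were below the control median, while their highest or lowest libraries lay beyond the control range.

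In somatic cells the listed members made up 0.484% ± 0.074 of counts in MEHP, 0.538% ± 0.028 in VZN and 0.517% ± 0.061 in control (SD, n = 8 each). MEHP over control in SC had a median log2 fold change of -0.07 over 15 members, with 11 of 15 below 0 against 59.2% of all miRNAs, and the smallest p for miR-297a-5p (-0.25 ± 0.17, edgeR adjusted p = 0.998) and miR-297c-5p (-0.25 ± 0.19). That median rests on library 1 of the MEHP F3 somatic cells: without it, it was 0.01, with 6 of 15 members and 55.8% of all miRNAs below 0. When library 2 of the same group was left out instead, miR-297a-5p was called (-0.48 ± 0.11, edgeR adjusted p = 0.0395), as 1 of 5 miRNAs called among the 355. VZN over control in SC had a median of 0.08, with 2 of 15 members below 0, against 44.5% of all miRNAs, and the smallest p for miR-669l-5p (0.19 ± 0.16, edgeR adjusted p = 0.994) and miR-669p-5p (0.17 ± 0.16).

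**Figure D3:**
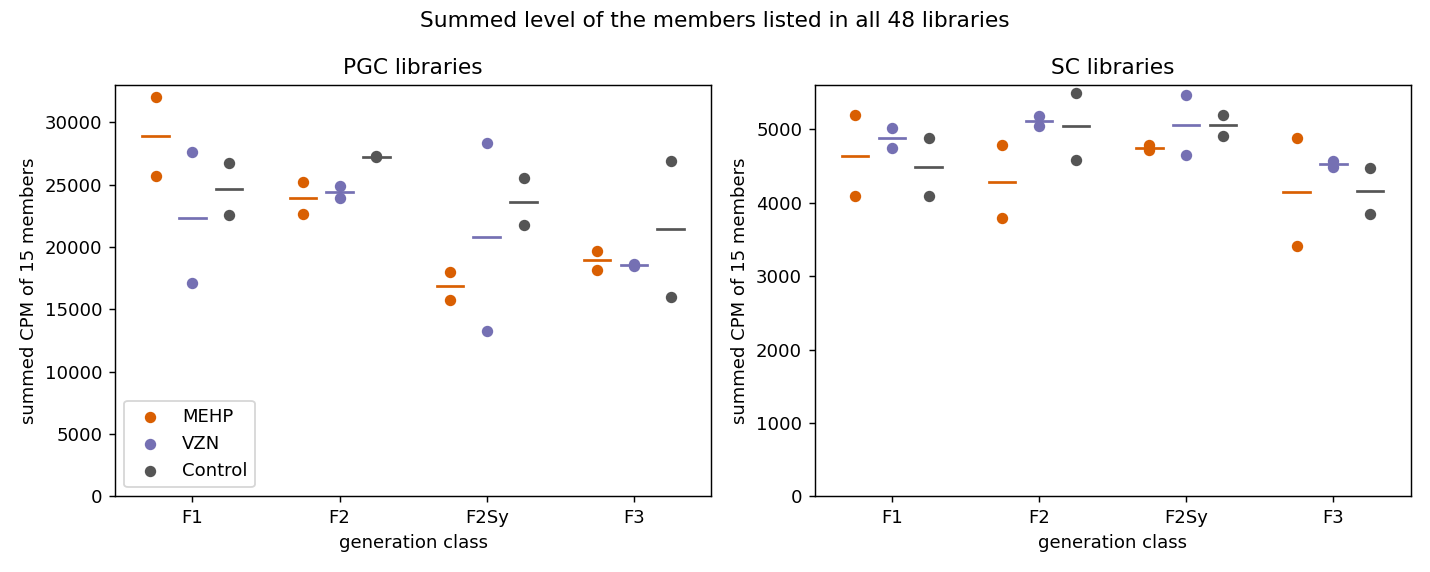
Summed CPM of the 15 members listed in all 48 libraries, by generation class, in PGC (left) and SC (right); each point is a library, coloured by lineage, and each short line the mean of a group's 2 libraries. The MEHP F2Sy germ cells lie at 18022 and 15768 CPM, below the control F2Sy germ cells at 25504 and 21766 CPM, and the VZN F2Sy germ cells are split between 13250 and 28345 CPM.

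Within single generation classes, where 2 libraries are set against 2, none of the 304 tests of a member was called (16 comparisons, 0.019% of 5264 tests over all miRNAs called, the highest share being 0.33% in VZN F2Sy germ cells), and 4 had an unadjusted p under 0.05, against 3.82% of all 5264 tests. These 4 were miR-669b-5p in MEHP F2Sy germ cells, miR-669f-3p in VZN F2 germ cells, miR-467b-5p in MEHP F2 somatic cells and miR-669l-5p in VZN F3 somatic cells. DESeq2 also called no member.

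Of the 16 comparisons, the median over the members was farthest from 0 in MEHP F2Sy germ cells. All listed members together reached 19674 and 17627 CPM in the MEHP F2Sy libraries, against 27850 and 25109 CPM in the control F2Sy libraries. Of the 23 tested members 23 were below 0, with a median log2 fold change of -0.47, where 49.8% of all miRNAs were below 0. For 17 of the 23, both MEHP libraries lay below both control libraries, against 21.1% of all tested miRNAs.

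miR-669b-5p had 1278 and 1212 CPM in MEHP F2Sy germ cells, against 1965 and 2052 CPM in control F2Sy germ cells (-0.70 ± 0.28, edgeR adjusted p = 0.506). miR-297a-5p had 1537 and 1233 CPM in MEHP F2Sy germ cells, against 2529 and 2099 CPM in control F2Sy germ cells (-0.75 ± 0.37, edgeR adjusted p = 0.506). miR-467a-5p had 5085 and 4310 CPM in MEHP F2Sy germ cells, against 7993 and 5452 CPM in control F2Sy germ cells. None of the 3 overlapped between the groups, and none passed the adjusted test. Marker levels also differed in these libraries: mesenchymal rows summed to 15848 and 26490 CPM in MEHP F2Sy germ cells, against 9186 and 11801 CPM in control F2Sy germ cells, gonadal somatic rows to 7273 and 11035 CPM against 5951 and 8515 CPM, and germ cell marker rows to 181705 and 165711 CPM against 200803 and 222611 CPM. The clusters with a germ cell preference did not move as one: the miR-290 to miR-295 rows summed to 187777 and 170446 CPM in MEHP F2Sy germ cells, against 205095 and 228104 CPM in control F2Sy germ cells, whereas the X-linked germline cluster summed to 202813 and 225642 CPM, against 135771 and 129829 CPM. Muscle marker rows summed to 461 and 537 CPM in MEHP F2Sy germ cells, against 144.4 and 141.2 CPM in control F2Sy germ cells. The endothelial marker miR-126a had 2271 and 4455 CPM in MEHP F2Sy germ cells, against 3699 and 5274 CPM in control. Its values overlapped between the groups, as did those of the gonadal somatic rows. The part of these markers in the members' levels was not tested.

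In the other 15 comparisons the median over the members lay between -0.28 and 0.24. In MEHP F1 germ cells 22 of 23 members were above 0, with a median of 0.21, and for 2 of 23 both MEHP libraries lay above both control libraries, against 8.58% of all miRNAs. In F2 germ cells both exposed libraries lay below both controls for 10 of 23 members under MEHP (16.2% of all miRNAs), with a median of -0.16, and for 16 of 23 under VZN (25.1%), with a median of -0.17. In VZN F2Sy germ cells 22 of 23 members were below 0, against 43.6% of all miRNAs, with a median of -0.28, and both VZN libraries lay below both controls for 2 of 23 (4.95%). That median was -0.09, with 13 of 23 below 0, without library 1 of the group, and -0.32, with 22 of 23 below 0, without library 2. In F3 germ cells both exposed libraries lay below both controls for 1 of 23 under MEHP (9.57%) and 2 of 23 under VZN (8.25%). In somatic cells it held for 10 of 15 members in MEHP F2Sy (30.1%), with a median of -0.22. Erythroid marker rows summed to 18304 and 86188 CPM in these MEHP libraries, against 15467 and 8778 CPM in the control F2Sy somatic libraries. The 86188 CPM was the highest of the SC libraries, and its part in the members' levels was not tested. In VZN F2Sy somatic cells 12 of 15 members were below 0, against 47.0% of all miRNAs, with a median of -0.20. In VZN F1 and VZN F3 somatic cells 13 of 15 were above 0 in each, against 48.7% and 55.5% of all miRNAs, both with a median of 0.24. The MEHP F3 somatic median was 0.08, with 8 of 15 above 0, 0.30, with 14 of 15 above 0, without library 1 of that group, and -0.41, with 3 of 15 above 0, without library 2. Whether the effect of a compound on a member differed between classes was not tested.

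Within the miR-467 family the rows did not keep a fixed proportion. In library 1 of the VZN F2Sy germ cells miR-467a-5p had 253 CPM, from 1843 counts, where the other 23 PGC libraries had 4027 to 9261 CPM with a median of 6541. miR-467d-5p had 361 CPM there, against 873 to 2091 CPM in the other 23, and miR-466p-5p 81.4 CPM, against 232 to 748 CPM. miR-467b-5p, at 244 CPM, and miR-297a-5p, at 1183 CPM, were also lowest there, by smaller margins.

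The neighbouring rows miR-467e-5p, at 2979 CPM, and miR-467c-5p, at 1027 CPM, stood well inside the range of the other libraries. In all, 5 of the 23 members were lowest in this library, as were 32 of the 303 miRNAs listed in all PGC libraries (10.6%), and 6 of the 303 were under an eighth of the median of the others. The deposited total of the library was 7286621 counts, among the higher PGC totals, and its other library, at 2932091 counts the smallest of all 48, had the highest miR-467a-5p level, 9261 CPM, with the lowest miR-669o-5p (187 CPM) and miR-669e-5p (41.3 CPM) of the 24 PGC libraries.

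Among somatic libraries the reverse for miR-467a-5p and miR-467e-5p was seen in library 1 of the MEHP F3 group. It did not extend to miR-466p-5p, which was blank in this SC library alone. Nor did it extend to miR-297a-5p, which was lowest of its fraction in both libraries that stood apart. Library 1 of the MEHP F3 somatic cells also differed beyond this family. It listed 18 members, against 30 in library 2 of its group. Its gonadal somatic rows, at 80385 CPM against 135117, and miR-126a, at 16721 CPM against 23904, were the lowest of the SC libraries. Their part in the members' levels was not tested. miR-467e-5p had 241 CPM and miR-297a-5p 175 CPM there, against 714 and 455 CPM in library 2 of that group, while miR-467a-5p had 1273 CPM, against 1320 CPM, and miR-467d-5p had 420 CPM, against 308 CPM. The ratio of miR-467a-5p to miR-467e-5p was 5.29 in that library, the highest of the 24 SC libraries, whose median was 2.19 and lowest 0.921. In PGC the ratio ran from 0.085, in library 1 of VZN F2Sy, to 2.84, with a median of 1.84.

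**Figure D4:**
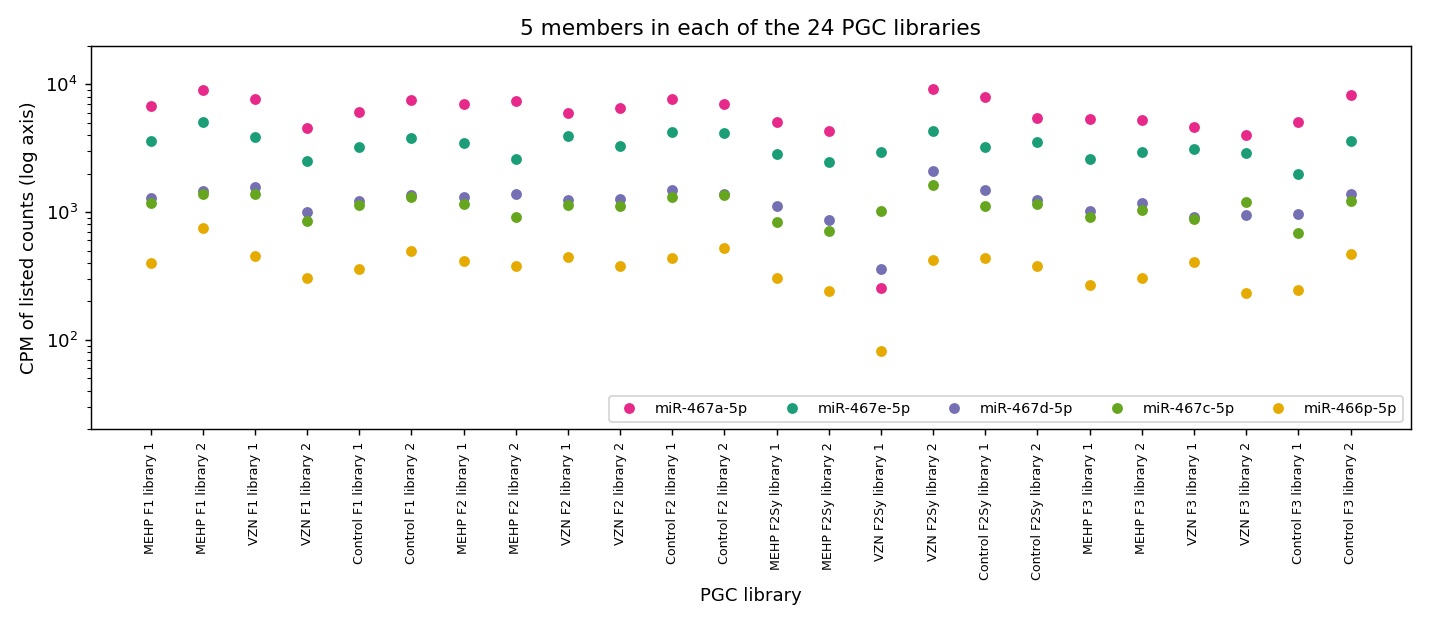
Level in CPM (log axis) of miR-467a-5p, miR-467e-5p, miR-467d-5p, miR-467c-5p and miR-466p-5p in each of the 24 PGC libraries, ordered by generation class and lineage. In library 1 of the VZN F2Sy group miR-467a-5p (253 CPM), miR-467d-5p (361 CPM) and miR-466p-5p (81.4 CPM) drop below all other libraries, while miR-467e-5p (2979 CPM) and miR-467c-5p (1027 CPM) do not.

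miR-467a-5p, miR-467d-5p and miR-466p-5p, singled out by their drop in library 1 of VZN F2Sy, were also correlated over the other PGC libraries. Across the 24 PGC libraries their log2 CPM had pairwise Pearson's r of 0.879 to 0.933, and of 0.706 to 0.924 over 23 libraries without library 1 of VZN F2Sy. In the 24 SC libraries miR-467a-5p and miR-467d-5p had r = 0.870, while miR-467a-5p with the other 13 members tested there had a median r of -0.03, from -0.23 to 0.71. Over 23 SC libraries without library 1 of MEHP F3 these were r = 0.954 and a median of -0.06. In PGC the r of miR-467a-5p with 16 other 5p or unmarked members had a median of 0.31. Without library 1 of VZN F2Sy that median was 0.71, with r from 0.074 to 0.852. This range overlapped that of miR-467a-5p, miR-467d-5p and miR-466p-5p among themselves. These r describe libraries that share their totals between members, and rows with near-identical sequences may share reads, so no test was made of them.

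In the median, the rows of 3p strands varied more between libraries than those of 5p strands, and they varied together. Near-identical members may share reads, so 3p rows of different names need not vary separately. In PGC the SD of log2 CPM had a median of 0.71 over the 4 tested 3p members (miR-466e-3p, miR-466p-3p, miR-669f-3p and miR-669o-3p), of 0.39 over 18 tested 5p members and of 0.43 over all 303 miRNAs. The spread between the 2 libraries of a group, pooled over the 12 groups, was 0.70 for the 3p and 0.39 for the 5p members, about as wide as the spread over all libraries. miR-466e-3p spanned 24.5 to 437 CPM, a 17.8-fold range, and miR-466p-3p 130 to 1076 CPM, an 8.26-fold range. miR-669f-5p, by contrast, spanned 1.74-fold. The SD of miR-669f-3p, at 0.51, was no wider than that of miR-669o-5p, at 0.52. The 4 3p rows were also low in level, with medians of 96.6 to 332 CPM, where 5p rows reached 6288 CPM. The part of level in the spread was not tested.

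Groups were split by these strands. miR-466p-3p had 159 and 816 CPM in the control F2Sy germ cells, and miR-466e-3p had 60.3 and 304 CPM in the same libraries. In the MEHP F3 germ cells miR-466p-3p had 277 and 1076 CPM, and miR-466e-3p 117 and 437 CPM. In both groups the same library was high for both rows, which may share reads. The 5p row of miR-466p stood at 439 and 380 CPM in control F2Sy and at 268 and 305 CPM in MEHP F3.

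Over the 24 PGC libraries the 4 3p members had pairwise Pearson's r of 0.763 to 0.955 in log2 CPM, with a median of 0.868, while 3p with 5p or unmarked members had a median r of 0.26, 5p or unmarked members among themselves 0.65, and all pairs of listed miRNAs 0.01. For miR-466p and miR-669o, which of the 3p and 5p rows was higher changed between libraries. As near-identical members may share reads, such a ratio of rows need not compare the arms of a single hairpin. The ratio of 3p to 5p of miR-466p ran from 0.362 to 3.53 in PGC, with 3p above 5p in 12 of 24 libraries, and from 0.258 to 5.68 in 23 SC libraries. For miR-669o it ran from 0.172 to 1.32 in PGC. For miR-669f, where 5p prevailed, it stayed between 0.037 and 0.115 in PGC, and for miR-467d between 0.027 and 0.160 in the 22 PGC libraries that listed both arms.

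**Figure D5:**
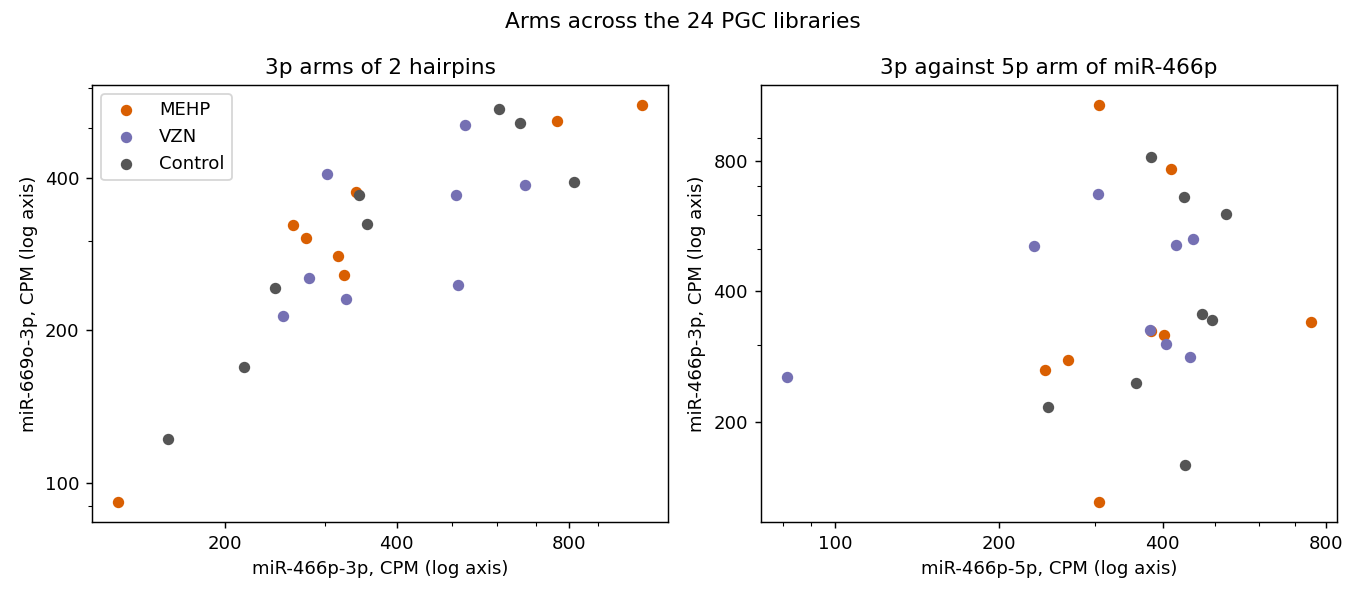
Level in CPM (log axes) across the 24 PGC libraries, coloured by lineage: miR-669o-3p against miR-466p-3p (left) and miR-466p-3p against miR-466p-5p (right). The 3p strands of different hairpins rise together over 130 to 1076 CPM of miR-466p-3p, whereas the arms of the same hairpin spread apart.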

How the data were processed

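The authors deposited whole-number counts for 563 mature miRNAs in 48 libraries, with the canonical form and its isomiRs summed, per the file headers. The submitters' processing notes name Bowtie 1.3.1 and mm39; no source used here tells how reads matching several members were counted, and near-identical members may share reads. Of the cells, 26.2% were blank, so totals are of listed counts and not sequencing depth. The members and lists were chosen with earlier results of these data known.

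Libraries were grouped by fraction, exposure and generation class. Each fit took the miRNAs listed in every library of the fit: 251 over 48 libraries, 303 in PGC and 355 in SC, of which 15, 23 and 15 were members. edgeR 4.0.16 in R 4.3.3 was used (filterByExpr, TMM factors, robust quasi-likelihood, two-sided), with Benjamini-Hochberg adjustment over all miRNAs of a comparison and a threshold of 0.05. The biological coefficient of variation was 0.310, 0.336 and 0.297. The exposure fits had 12 residual degrees of freedom. The test was checked on simulated counts. Values are given in full for the 6 members with the highest mean, as ranges for the rest, and for the 2 smallest p where nothing was called; miR-466p, the 3p strands and the libraries that stand apart were singled out after their values were seen. Libraries had no stated molecular identifiers, so reads are not independent molecules. Positions come from RefSeq and GENCODE M21 (GRCm38), another build than the authors', so none is printed.

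Alternatives were RLE factors, library size alone, TMM without the members, blanks as 0 or at the smallest listed count, DESeq2 1.42.0, other libraries in the fit, a replicate block, adjustment over the 16 class comparisons together, and each library left out in turn. Leaving out 2 libraries that stand apart was added after the data were seen.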

Additional observations from a re-analysis of the deposited data

Results flagged for a closer look

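Of 96 sets of 8 libraries (15 members, and their summed level, in each of 6 combinations of fraction and lineage), 13 had a highest or lowest library farther from the next than Dixon's 95% critical value of 0.526 allows. Chance flags about 1 in 20 independent sets. These sets share libraries and correlated members, so the 13 cannot be set against that rate. On the CPM scale used, miR-467a-5p at 253 CPM in library 1 of the VZN F2Sy germ cells was not flagged. Library 1 of the MEHP F3 somatic cells was the low one in 6 of the 13, with miR-467e-5p at 241 CPM (the next MEHP SC library at 611), miR-297c-5p at 40.02 CPM (95.8), miR-466k at 15.8 CPM (41.7), miR-466c-5p at 84.0 CPM (131), miR-467c-5p at 190 CPM (236) and miR-669l-5p at 117 CPM (187). Library 1 of the control F3 germ cells was the low one in 3, with miR-467e-5p at 1986 CPM (the next control PGC library at 3237), miR-669b-5p at 1412 CPM (1965) and miR-467c-5p at 687 CPM (1108). The other 4 were single sets: miR-467e-5p was high at 5087 CPM in library 2 of the MEHP F1 germ cells, miR-467b-5p low at 66.7 CPM in library 2 of the MEHP F2 somatic cells, miR-466k high at 63.1 CPM in library 2 of the VZN F1 somatic cells, and miR-669e-5p low at 41.3 CPM in library 2 of the VZN F2Sy germ cells.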

How the results depend on the processing

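The call and direction of the 15 members in the 3 fraction comparisons held in all 1170 values under alternatives, from 0.97 to 3.23 on the log2 scale. Reading blanks as 0 brought 29 of 35 members in the MEHP, 27 in the VZN and 27 in the control lineage past the threshold, with 404, 389 and 407 of all 563 miRNAs called, blanks at the smallest listed count 35 in each, with 497, 482 and 489 of 563, and fitting the compared libraries alone 23 of 23 in the control lineage, with 244 of 287; more miRNAs were tested in these than the 251 of which 219, 204 and 211 were called in the 3 lineages. The smallest listed value was 18.7 to 37.9 CPM in a PGC library and 12.6 to 15.7 CPM in an SC library. A miRNA blank in both fractions is thus higher in PGC by construction when blanks take that value. The 35 calls of that setting therefore say nothing about members that were mostly blank. TMM without the members moved the median of all 251 miRNAs in the control lineage to 0.29 and that of the members to 2.71. Leaving out 1 library gave 15 to 15 calls in each lineage. For the mean effects it gave 0 to 0 for MEHP in PGC and VZN in SC, 0 to 2 for VZN in PGC and 0 to 1 for MEHP in SC, for the 16 class comparisons 0 to 4, and for the lineage differences 0 to 0 (MEHP) and 0 to 1 (VZN); the lone library left in a group is then assumed to vary like the other groups. The class calls came without library 2 of the MEHP F3 somatic cells (4: miR-297a-5p, miR-297c-5p, miR-466k and miR-467e-5p, all lower, among 81 of 355 miRNAs called), library 1 of the VZN F2Sy germ cells (2: miR-669e-5p and miR-669o-5p, lower, among 19 of 303) or library 2 of that group (3: miR-467a-5p, miR-467d-5p and miR-466p-5p, lower, among 16 of 303). With library 1 of the MEHP F3 somatic cells also out, the counts without library 1 and library 2 of the VZN F2Sy germ cells were 2 and 3 over the classes, 0 and 2 for the VZN mean effect in PGC, and 0 and 1 for the VZN lineage difference. The replicate block gave 15 calls in each lineage and 0 elsewhere. Germ and somatic libraries of the same replicate number had correlations of deviations of -0.455 to 0.534, over 0.1 in 4 of 12 pairs. Between exposed and control libraries of a fraction they ran from -0.132 to 0.565, the highest for MEHP in F2Sy germ cells. Such mixed values cannot tell whether libraries of the same number shared a batch in some groups. Depth limits the low members, since the smallest value a PGC library lists is 18.7 to 37.9 CPM.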
